A study of Mus musculus with 143 samples.

Results

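H3K27me3 was profiled by CUT&Tag in control mouse oocytes of 2 ages, and the 6 peak lists of these libraries, of 143 samples in the series, are described here: 3 lists titled adult GV and 3 lists titled p20. CUT&Tag cuts and tags the chromatin at which an antibody is bound, so that the tagged fragments can be sequenced. GV (germinal vesicle) oocytes are fully grown oocytes held in prophase of meiosis with an intact nucleus, and p20 oocytes were taken at postnatal day 20. All 6 samples carry the genotype label control, and the labels give no further allele, strain or age for them; they name no agent. Oocytes were dissected from ovaries, collected in bulk and processed fresh, without fixation, per the labels' protocols. In the mutant groups of the series the RNA exosome genes Dis3 and Exosc10 were deleted. These groups enter only where a range is needed and in an alternative fit with all 12 H3K27me3 lists. The IgG group was not analysed here. The comparison asks which H3K27me3 regions the 2 ages share, which were found at 1 age, and how the width and signal of the peaks differ. The labels do not say whether lists came from separate animals, so p-values measure the spread between these samples, which may be technical.

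H3K27me3 is trimethylation of lysine 27 of histone H3. It is deposited by Polycomb repressive complex 2 (PRC2), whose catalytic subunit is EZH2 or EZH1 and whose other core subunits are EED and SUZ12, and it marks genes that are kept silent, classically the Hox genes and other regulators of embryonic patterning. In growing mouse oocytes the mark also spreads over broad intergenic and genic regions, and at a small set of genes the oocyte's H3K27me3 is passed to the embryo, where it silences the maternal allele (noncanonical imprinting, as at Xist, Gab1 and Sfmbt2).

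A peak here is an interval the authors called in 1 library, with its summed and its highest signal. Promoters were scored by the percent of the 5 kb around the gene start (2.5 kb on each side) that lay under peaks, and a promoter with at least 20% of that window, 1 kb, under peaks is called marked. The following 5 promoter sequences stand for the classes that the comparison yields: Nkx2-5 and Otx2 were marked in all 6 lists, Klk15 and Mbnl2 in the 3 p20 lists and no adult list, and Noxa1 in the 3 adult lists and no p20 list. They are the 300 bases around the gene start from RefSeq (GRCm38.p6), in lower case with each CG dinucleotide in capitals, because CG-rich promoters are the classical sites of PRC2. Nkx2-5, a heart regulator, is at chr17:26841516-26841815 on the minus strand. Otx2, a forebrain regulator, is at chr14:48667595-48667894 on the minus strand. Klk15, a secreted serine protease of the kallikrein family, is at chr7:43931425-43931724 on the plus strand. Mbnl2, a splicing regulator, is at chr14:120275419-120275718 on the plus strand. Noxa1, an activator of NADPH oxidase, is at chr2:25095156-25095455 on the minus strand.
Nkx2-5: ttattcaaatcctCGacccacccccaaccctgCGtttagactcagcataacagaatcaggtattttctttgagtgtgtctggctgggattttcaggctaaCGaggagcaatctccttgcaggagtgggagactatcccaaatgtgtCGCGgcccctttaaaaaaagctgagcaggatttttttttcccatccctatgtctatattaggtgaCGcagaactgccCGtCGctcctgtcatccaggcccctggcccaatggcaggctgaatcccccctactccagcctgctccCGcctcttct
Otx2: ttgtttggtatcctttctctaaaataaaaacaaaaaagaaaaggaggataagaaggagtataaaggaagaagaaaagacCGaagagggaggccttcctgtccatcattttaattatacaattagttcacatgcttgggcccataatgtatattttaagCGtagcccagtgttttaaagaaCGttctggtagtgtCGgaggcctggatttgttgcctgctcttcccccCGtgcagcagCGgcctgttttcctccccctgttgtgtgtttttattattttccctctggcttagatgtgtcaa
Klk15: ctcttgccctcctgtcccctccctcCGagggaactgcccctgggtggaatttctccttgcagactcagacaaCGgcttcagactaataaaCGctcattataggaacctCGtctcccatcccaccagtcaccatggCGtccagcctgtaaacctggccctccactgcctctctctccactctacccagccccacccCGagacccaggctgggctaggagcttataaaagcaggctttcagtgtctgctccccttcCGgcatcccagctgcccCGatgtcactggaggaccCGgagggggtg
Mbnl2: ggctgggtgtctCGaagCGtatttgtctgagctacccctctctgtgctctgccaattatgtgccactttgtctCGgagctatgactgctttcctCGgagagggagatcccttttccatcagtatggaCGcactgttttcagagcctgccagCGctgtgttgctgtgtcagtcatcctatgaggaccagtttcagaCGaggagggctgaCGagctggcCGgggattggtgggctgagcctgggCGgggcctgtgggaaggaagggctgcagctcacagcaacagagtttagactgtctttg
Noxa1: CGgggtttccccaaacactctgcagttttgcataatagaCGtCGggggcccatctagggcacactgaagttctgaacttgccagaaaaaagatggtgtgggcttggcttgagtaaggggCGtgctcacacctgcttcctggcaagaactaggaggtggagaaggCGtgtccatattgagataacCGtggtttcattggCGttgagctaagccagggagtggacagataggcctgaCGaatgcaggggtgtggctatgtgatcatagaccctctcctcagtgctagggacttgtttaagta
The motif CG, which reads the same on both strands, occurred 9, 6, 9, 10 and 8 times in these windows, in the order printed, and 94.2% of all 27025 promoters examined held at least 1. Nkx2-5 and Klk15 both held 9, while the median count was 13 over all promoters marked in all 6 lists and 5 over those marked in the 3 p20 lists and no adult list.

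The lists differed most within the adult group. The adult lists held 98190, 202628 and 87394 peaks (replicates 1 to 3) and the p20 lists 155818, 151535 and 159895. Adult lists 1 and 3 were the shortest of the 6 and adult list 2 the longest, so the groups overlapped. Covered length was 75.2, 152 and 66.8 Mb in the adult lists against 132, 129 and 132 Mb at p20. The mean was 97.9 ± 46.8 Mb against 131 ± 1.92 Mb (SD, n = 3 each), a log2 difference of -0.52, with an exact permutation p of 0.4 (2-sided, adjusted p 0.6 over 6 measures). The number of peaks gave a log2 difference of -0.37 (exact permutation p 0.4), and -0.75 without adult list 2 (exact permutation p 0.2). With 3 lists against 3 this test cannot go below 0.1. Without adult list 2 the log2 difference in covered length was -0.89, and the p of 0.2 in an exact permutation test is then the smallest that 2 lists against 3 allow.

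**Figure D1:**
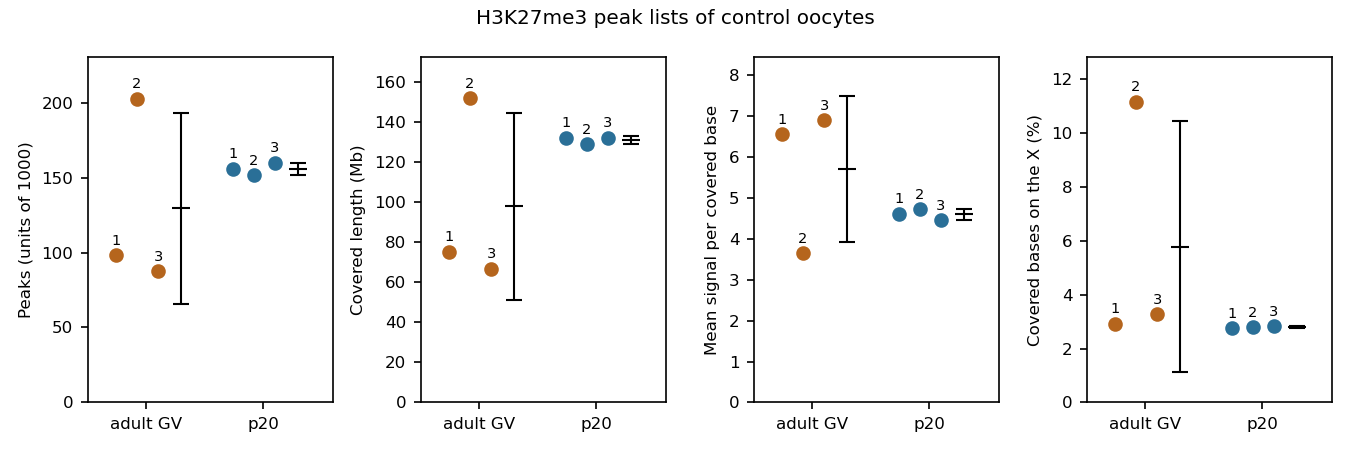
Number of peaks (in units of 1000), covered length (Mb), mean signal per covered base (the authors' signal) and share of covered bases on the X chromosome (%) in each H3K27me3 list; points are lists with their replicate number, and the bar beside them is the mean with the SD (n = 3). Adult list 2 lies apart from adult lists 1 and 3 in all 4 panels, while the 3 p20 lists lie close together.

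Adult list 2 also stood apart in where its peaks lay. The X chromosome held 24117 of its peaks and 11.2% of its covered bases. In the other 5 lists that share was 2.92% and 3.27% (adult 1 and 3) and 2.75%, 2.78% and 2.82% (p20 1 to 3). The 6 H3K27me3 lists of knockout oocytes reached 3.56% to 4.10%, and the 6 lists of control oocytes for RNA polymerase II 2.80% to 3.49%. Of the 16.9 Mb that adult list 2 covered on the X, 76.2% lay in no other of the 6 lists, against 44.3% of its autosomal bases. Its signal per covered base was the lowest (3.65). It marked 5 of 20 promoters of oocyte genes, against 1 in each other adult list. Of all promoters it marked 21.8%, against 14.1% and 12.6% in adult lists 1 and 3. The source of this list's difference was not tested, and comparisons of the ages that rest on it are given list by list or with and without it. In pooled oocytes, a region marked in fewer cells and a region with less of the mark per cell cannot be told apart.

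**Figure D2:**
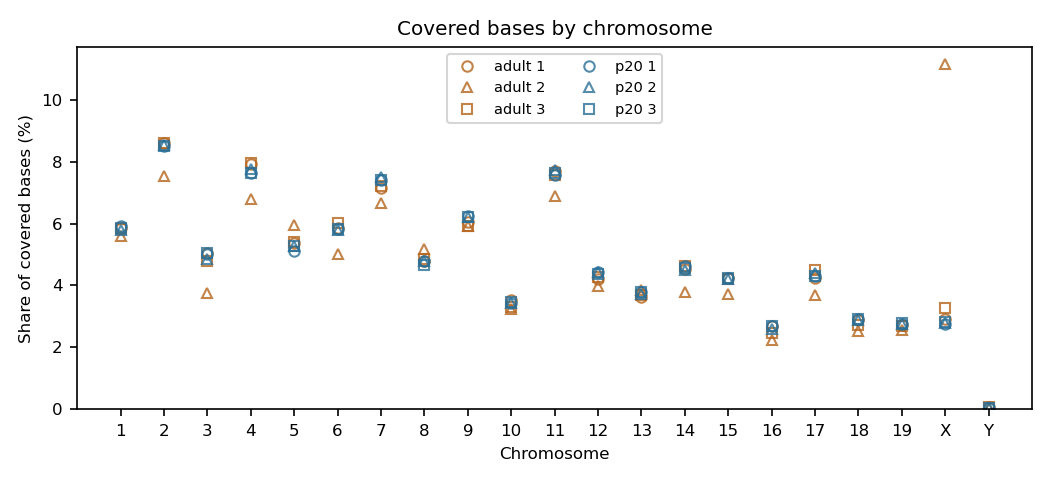
Share of covered bases (%) on each chromosome in the 6 lists; adult lists are brown and p20 lists blue, with circles, triangles and squares for replicates 1 to 3. The triangle of adult list 2 stands at 11.2% on the X, where the other lists lie between 2.75% and 3.27%.

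Most peaks were narrow in every list, and the median width was 633, 562 and 636 bp in the adult lists and 635, 620 and 622 bp at p20. The log2 difference of the medians was -0.04 (exact permutation p 0.9), and 0.02 without adult list 2. Among the 87394 peaks of highest total signal in each list, the median was 659, 800 and 636 bp in the adult lists and 848, 819 and 837 bp at p20, a log2 difference of -0.26. That number is 100% of adult list 3, 89.0% of adult list 1 and 43.1% of adult list 2, but 54.7% to 57.7% of each p20 list, and stronger peaks were wider in every list, so width and list length cannot be told apart there. The groups were separate with peaks above their list's median signal (-0.20) and with peaks under 1 kb apart joined (-0.11), with an exact permutation p of 0.1 in each. The ages differed more in the wide tail, once adult list 2 is set aside. Peaks of 10 kb or more numbered 13 and 12 in adult lists 1 and 3, 106, 134 and 72 at p20, and 340 in adult list 2. They held 0.398% and 0.359% of covered bases in adult 1 and 3, 1.12%, 1.47% and 0.791% at p20, and 3.37% in adult 2. The difference of the means, adult minus p20, was 0.248 percentage points with all lists (exact permutation p 1) and turned to -0.749 points without adult list 2 (exact permutation p 0.2, the smallest possible). Peaks of 5 to 10 kb showed the same pattern, with 1.08% and 1.26% of covered bases in adult 1 and 3, 3.93%, 4.93% and 3.39% at p20, and 5.26% in adult 2. Peaks of 2 to 5 kb differed in this respect. They made up 9.74% and 9.71% of covered bases in adult 1 and 3, 10.6% in adult 2, and 16.1%, 16.8% and 16.0% at p20, so all 3 adult lists lay below all 3 p20 lists.

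**Figure D3:**
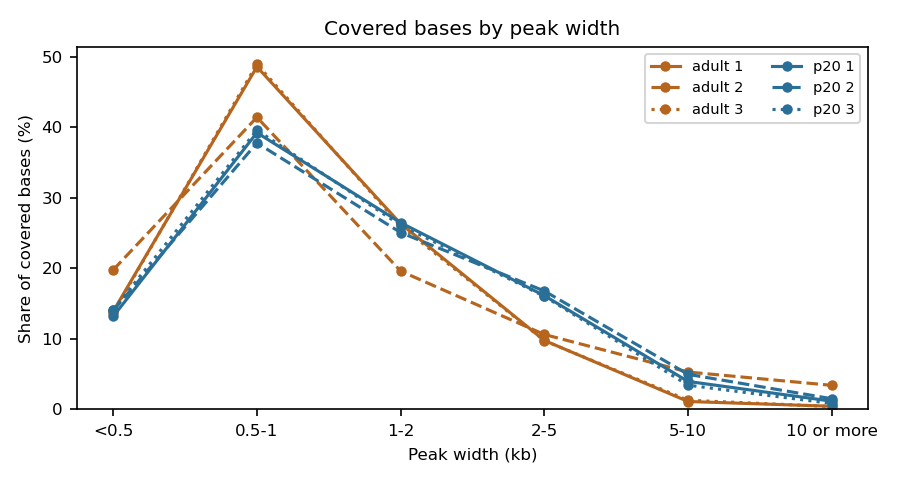
Share of covered bases (%) in 6 classes of peak width (kb) for each list; brown lines are adult lists and blue lines p20 lists. In the class of 2 to 5 kb the p20 lists lie near 16% and the adult lists near 10%, and adult list 2 is the highest in the class of 10 kb or more.

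Of the 6 measures of whole lists, total signal in peaks was the 1 in which every adult list lay below every p20 list. In units of 1000000 of the authors' signal it was 493, 555 and 461 in the adult lists and 611, 610 and 590 at p20 (log2 difference -0.27, exact permutation p 0.1, the smallest possible, adjusted p 0.6), and the log2 difference was -0.34 without adult list 2 (exact permutation p 0.2). Signal per covered base was 6.56, 3.65 and 6.90 in the adult lists and 4.62, 4.73 and 4.46 at p20. Adult lists 1 and 3 therefore held fewer peaks with more signal per base than p20, and adult list 2 more peaks with less (log2 difference 0.25, exact permutation p 0.4, and 0.55 without adult list 2). The median peak had a total signal of 3455, 1227 and 3637 in the adult lists and 2126, 2001 and 2054 at p20. The strongest 1% of peaks held 10.3%, 32.3% and 10.8% of the signal in the adult lists and 16.8%, 19.5% and 14.8% at p20. The reads were sampled to an equal number per library before the calls, and whether the signal was scaled further is not given in the sources used here.

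Overlap between lists was higher among p20 lists than among adult lists. The Jaccard index, the bases shared by a pair of lists as a fraction of the bases in either, was 0.299 to 0.306 for the 3 p20 pairs. For the adult pairs it was 0.188 (lists 1 and 3), 0.145 (1 and 2) and 0.144 (2 and 3). The 9 pairs across ages gave 0.200 to 0.226, so each adult list shared a larger fraction with every p20 list than with any other adult list. With the same number of peaks in every list, the 87394 of highest total signal, the order was unchanged: 0.324 to 0.332 for p20 pairs, 0.215 to 0.246 across ages and 0.163 to 0.190 for adult pairs. These indices are a description of lists of unequal size, and no test was made on them.

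**Figure D4:**
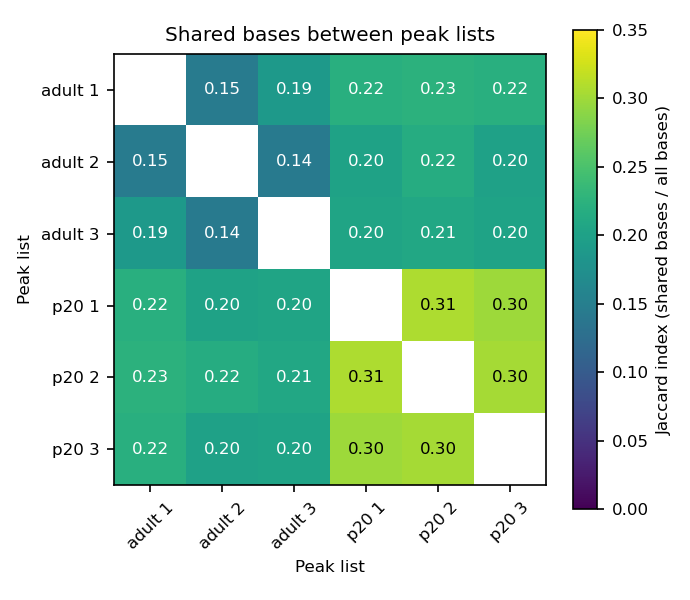
Jaccard index (shared bases divided by all bases of both lists) for each of the 15 pairs of lists, on a scale from 0 to 0.35. The p20 pairs at the lower right are the highest (0.299 to 0.306) and the adult pairs at the upper left the lowest (0.144 to 0.188).

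Consensus regions, the bases in at least 2 of the 3 lists of an age, covered 51.2 Mb in adult oocytes and 102 Mb at p20, in 84648 and 142419 regions. They shared 35.3 Mb, which is 69.0% of the adult and 34.8% of the p20 consensus. Another 15.9 Mb was in the adult consensus alone and 66.2 Mb in the p20 consensus alone. These lengths depend on the number of lists: without any 1 p20 list the adult-only length was 24.4 to 25.2 Mb and the p20-only length 34.2 to 34.8 Mb, and without any 1 adult list the adult-only length was 4.57 to 7.30 Mb. Without adult list 2 the adult consensus, then the bases in both lists 1 and 3, fell to 22.4 Mb, of which 79.6% was shared, and the shared share of p20 was 17.6%. Counted list by list, 9.60 Mb lay in all 6 lists and 6.55 Mb in all 3 p20 lists and no adult list, against 0.370 Mb in all 3 adult lists and no p20 list. Leaving adult list 2 out of account, 12.2 Mb lay in all 3 p20 lists and in neither adult list 1 nor 3. Any of the 6 lists covered 363 Mb, so most bases under a peak were found in few libraries. Of the 22.4 Mb in both adult list 1 and adult list 3, 1.54 Mb was in no p20 list. Most of the adult consensus was thus also in the p20 consensus, while most of the p20 consensus was not in the adult one.

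Regions found at 1 age alone were short. The adult consensus regions with no base in the p20 consensus had a median width of 302 bp, and those at p20 with no base in the adult consensus 371 bp, against 539 and 770 bp for regions with at least 50% of their length in the other consensus. All 53 adult regions of 10 kb or more, and 180 of the 181 at p20, were in the class with at least 50% overlap. The widest region of 1 age alone was 5.72 kb in adult (chr14:67231749-67237469, over Ebf2, a regulator of brown fat and neuron development, and Gm20675). It was covered in full by adult lists 1 and 3 but also by p20 list 3, and by none of the other 3 lists. At p20 it was 4.31 kb (chr17:34579840-34584150, in Notch4, an endothelial Notch receptor), with 100%, 100% and 83.9% cover in the p20 lists and 0%, 12.5% and 35.8% in the adult lists. Neither region was therefore absent from every list of the other age.

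The other widest regions of 1 age had the same property. The adult ones lay in Lhx8 (chr3:154321947-154323621), an oocyte transcription factor gene, in C230014O12Rik, in AV320801 on the X, and 6210 bp from the nearer end of Mapk9, a stress kinase gene. They were 1660 to 1675 bp wide, and p20 list 2 or 3 reached into each of them, by 28.9% to 57.7%. The p20 ones lay in Gm36287, in Scube1, a secreted vascular protein gene, 48381 bp from the nearer end of Ajap1 and 29644 bp from that of Mir8110. They were 3956 to 4248 bp wide, adult list 1 covered at most 2.12% of any of them, and adult list 2 covered 15.3% to 51.9%.

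The widest shared regions lay at an array of 5S ribosomal RNA genes, at a stretch with no annotated gene and at developmental or adhesion genes. The widest covered 87.6 kb (chr8:123537303-123624883), a tandem array of 49 annotated 5S ribosomal RNA genes, at 99.5% to 100% in every list. The next covered 81823 bp (chr6:114556457-114638279), overlapped no annotated gene and lay 4848 bp from the nearer end of Atg7, with 90.4% to 99.7% cover. Repeats of nearly identical sequence, such as the 5S array, can gather reads from many copies, and how such reads were placed is not given in the sources used here. Repeats in the region near Atg7 were not examined. The next 3 were at developmental or adhesion genes: Pax7, a muscle and neural crest regulator (25851 bp, chr4:139815299-139841149), Cdh22, a cadherin (24716 bp, chr2:165209381-165234096), and Gata2, a blood regulator (23328 bp, chr6:88186837-88210164). The Pax7 region was covered by 76.4%, 99.8% and 87.0% in the adult lists and by 97.1%, 99.1% and 93.5% at p20.

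Within every list, the peaks that overlapped the consensus of the other age were the stronger ones. In adult lists 1, 2 and 3, 56.6%, 30.1% and 57.2% of peaks did so, and their median total signal was 4438, 1793 and 4676 against 2640, 1094 and 2740 for the rest. At p20, 29.6%, 30.3% and 29.6% of peaks did so, with medians of 4092, 3968 and 3967 against 1786, 1670 and 1729. With the peaks of a list divided by total signal into 4 classes of equal number, the overlap was higher in the strongest than in the weakest class in all 6 lists. It went from 34.6%, 16.6% and 34.0% to 86.0%, 54.1% and 86.7% in the adult lists and from 12.2%, 12.4% and 12.4% to 63.6%, 65.4% and 63.7% at p20. Stronger peaks were also wider, with a median of 1034 to 1298 bp in the strongest class against 397 to 528 bp in the weakest, so a longer peak had more bases with which to overlap.

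Across the promoters of 27025 protein-coding and long noncoding RNA genes, the marked share was 14.1%, 21.8% and 12.6% in the adult lists and 20.9%, 21.1% and 21.01% at p20. On the X it was 10.99%, 40.7% and 10.99% in the adult lists and 18.7%, 19.4% and 17.0% at p20, so adult list 2 again stood apart there. A total of 2187 promoters were marked in all 6 lists and 18270 in none. Another 270 were marked in all 3 p20 lists and no adult list, and 5 in all 3 adult lists and no p20 list. Leaving adult list 2 out of account, these were 710 and 11. Adult list 2 alone marked 1204, of which 18.4% were on the X, against 3.87% of all promoters.

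The percent of the promoter window under peaks was then compared between ages with limma over the 8479 promoters covered in at least 3 of the 6 lists. None passed an adjusted p of 0.05 (0 of 8479, percent called 0%), and 1106 had an unadjusted p below 0.05. All 3 p20 lists lay above all 3 adult lists at 1675 promoters (19.8%) and all 3 adult lists above all 3 p20 lists at 55 (0.649%). The median promoter tested had 9.68 percentage points more cover at p20, and the median difference over all 27025 promoters was 0. Without adult list 2, 551 of 7660 promoters passed (7.19%), each with more cover at p20. Cover in at least 3 lists then keeps promoters covered at p20 alone and drops those covered in the 2 adult lists alone, so the filter fixes part of that direction. With cover asked for in at least 2 lists, which both kinds can meet, 586 of 9286 passed (6.31%), also each higher at p20. With cover in at least 3 lists and the same number of peaks per list, 162 of 6505 passed (2.49%). Adult lists 1 and 3 covered fewer bases as whole lists, 75.2 and 66.8 Mb against 129 to 132 Mb at p20. With the same number of peaks it was 69.8 and 66.8 Mb against 95.7 to 97.3 Mb. Differences at single promoters or bins therefore cannot be told apart from that of the whole lists. In bins of 10 kb over the genome, 0 of 64470 passed and 10513 had an unadjusted p below 0.05. The p20 lists lay above the adult lists in 14509 bins (22.5%) and below in 743 (1.15%). Without adult list 2, 4433 of 55283 bins passed (8.02%), 4428 of them higher at p20, under the same filter. With cover in at least 2 lists it was 4054 of 74786 (5.42%), 4050 of them higher at p20. With cover in at least 3 lists and the same number of peaks per list, 1493 of 40794 passed (3.66%).

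The 10 promoters with the largest gap in favour of p20 all missed the test (limma adjusted p 0.315), and all 10 passed it without adult list 2 (adjusted p 0.0128 to 0.0352). Their windows gained 50.7 to 58.7 percentage points. Irgm1, an interferon-induced GTPase of cell defence, was covered by 18.6%, 9.06% and 39.9% in the adult lists and 81.7%, 80.2% and 81.9% at p20. The 3 p20 values were nearly equal while the adult ones spread widely below them. Gstm1, a glutathione transferase, had 50.8%, 32.7% and 25.6% against 100%, 78.8% and 95.7%. Cldn11, a tight junction protein, had 50.7%, 27.3% and 12.3% against 82.6%, 74.4% and 95.8%, and Cx3cl1, a chemokine, 22.3%, 47.8% and 31.5% against 80.6%, 89.0% and 86.1%. The groups were separate in all 10 by choice, since separation was a condition for naming them. The 10 were also chosen for their large gaps in these same lists. Their passing without adult list 2 is therefore no separate evidence.

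Klk15 had no cover in adult list 1, 16.2% and 13.7% in adult 2 and 3, and 77.6%, 46.2% and 59.97% at p20. Mbnl2, named here as a noncanonical imprinted gene, had 13.6%, 19.8% and 10.9% against 39.8%, 47.4% and 55.4%, so adult list 2 was just under the 20% that counts as marked. The other promoters of the 10 were Slc6a13, a GABA transporter, Ubxn10, Vmo1, Iqsec1 and Lncbate3. Of the 10, RNA was tested for Iqsec1 alone, an exchange factor for small GTPases, and it gave a log2 change of -0.23, adult over p20 (edgeR adjusted p 0.0928).

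In the opposite direction the largest gaps were smaller, from 13.4 to 33.3 points, and none of the 10 passed. None passed without adult list 2 either, 7 of them with cover in at least 3 lists and, with cover in at least 2, also Slc11a1, Rap2c and Pak7. Noxa1 had 33.1%, 87.0% and 20.6% in the adult lists and 16.2%, 7.66% and 17.1% at p20, and its lowest adult list stood only just above the highest p20 list. Eda, the ectodysplasin ligand on the X, had 63.8%, 73.7% and 53.3% against 49.9%, 32.1% and 12.7%. Pnpla3, a lipid droplet enzyme, had 18.8%, 36.7% and 44.3% against 6.62%, 6.32% and 2.08%. Slc11a1, a metal transporter of macrophages, had 15.8%, 31.5% and 10.8% and no cover at p20, and Rap2c on the X had 11.02%, 31.0% and 9.26% and none at p20. The remaining 5 were Pcsk2os1, Scgn, Pak7, Rhox11-ps2 and Ang6. In 9 of these 10 promoters, all but Pnpla3, adult list 2 was the highest of all 6 lists.

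The classical Polycomb targets were covered at both ages. Of the Hox genes, which pattern the body axis, 22 of 39 had an entry in the promoter table. Of these, 21 were marked in all 6 lists, and the median cover was 59.4%, 97.1% and 74.3% in the adult lists and 90.1%, 93.6% and 86.8% at p20. The 4 whole clusters were covered as follows. The Hoxa cluster (chr6:52155367-52260880) was covered by 69.985%, 97.5% and 76.1% in the adult lists and 87.3%, 92.0% and 87.9% at p20. Hoxb (chr11:96194316-96368254) had 43.6%, 87.4% and 56.8% against 65.6%, 66.8% and 65.7%. Hoxc (chr15:102921131-103036856) had 49.0%, 84.5% and 55.8% against 68.3%, 78.1% and 74.2%, and Hoxd (chr2:74668225-74765142) had 55.2%, 86.1% and 62.0% against 77.8%, 82.0% and 78.9%. In all 4 clusters adult list 2 was the highest, adult lists 1 and 3 were the lowest and the p20 lists lay between them. The widest peak in Hoxa measured 47.4 kb in adult list 2, 5.95 and 5.67 kb in adult 1 and 3, and 9.44 to 18.5 kb at p20, so adult lists 1 and 3 held the cluster as many short peaks.

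Of 46 other developmental regulators with a promoter entry (of 72 listed), 45 were marked in all 6 lists, and the median cover was 81.4%, 100% and 83.4% against 95.7%, 95.1% and 92.4%. Nkx2-5 had 97.001%, 100% and 100% against 98.3%, 100% and 98.4%, and Otx2 had 92.8%, 100% and 96.9% against 97.1%, 100% and 94.6%. The exception was Emx2, a cortex and urogenital regulator, with no cover in any adult list and 14.5%, 34.7% and 26.7% at p20 (limma adjusted p 0.315). The p20 lists lay above the adult lists at 1 of 22 Hox and 3 of 46 other developmental promoters tested, against 19.8% of all promoters tested. Adult list 2 already covered these promoters at a median of 97.1% and 100%, which left little or no room above it. The 2 counts therefore cannot be compared with that share. Without adult list 2, 3 of 22 Hox promoters (Hoxa9, Hoxb1 and Hoxd3) and 5 of 46 others (Foxa1, Foxd3, Irx3, Neurod1 and Pax6) passed the limma test, each with more cover at p20, against 7.19% overall. Irx3, a patterning factor, had 24.9%, 63.2% and 57.8% in the adult lists and 86.1%, 93.2% and 92.3% at p20.

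**Figure D5:**
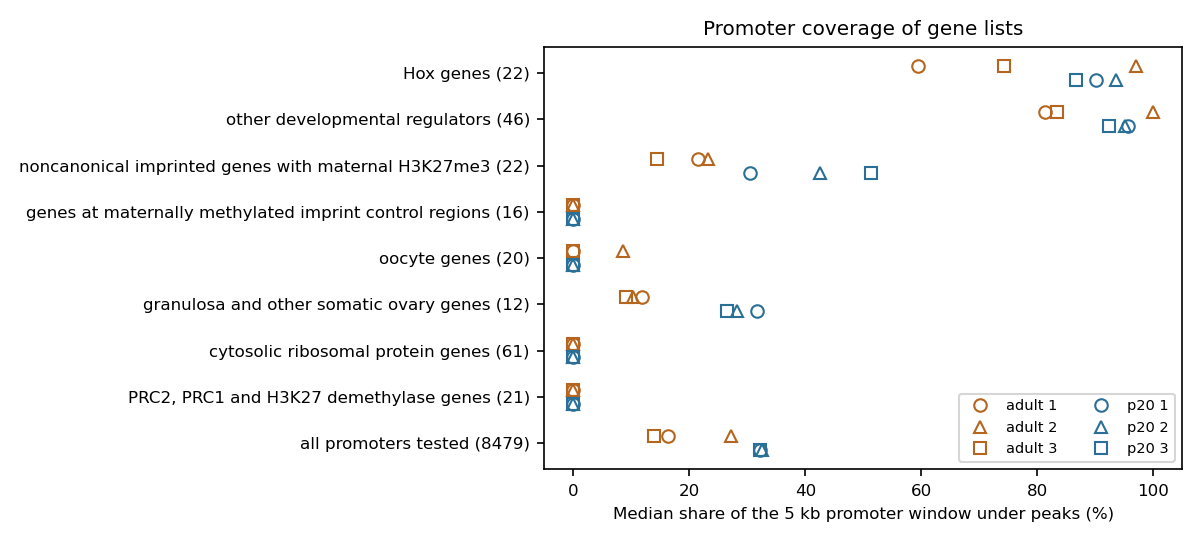
Median percent of the 5 kb promoter window under peaks for each gene list and list of peaks, with the number of promoters in brackets; brown symbols are adult lists and blue symbols p20 lists, with circles, triangles and squares for replicates 1 to 3. Hox and other developmental genes lie at 59.4% or more in all 6 lists, while the medians of ribosomal protein, Polycomb and maternally methylated imprinted genes are 0 in all 6.

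Genes of noncanonical imprinting with maternal H3K27me3 were examined at their promoters, where 0 of 19 passed the limma test with all 6 lists, and over whole genes, which were described without a test. Of the 30 genes listed, 28 had cover over the gene span in at least 3 lists. In 18 of these 28 (64.3%) all 3 p20 lists lay above all 3 adult lists, against 25.5% of the 14401 genes covered as widely and 28.2% of those of 50 kb or more. The opposite order was found at 155 of the 14401 genes (1.08%). With the same number of peaks per list it was 15 of 27 (55.6%) against 21.6%, and 25.1% of those of 50 kb or more. Against adult lists 1 and 3 alone it was 22 of 28 (78.6%) against 50.3%, and 55.5% of those of 50 kb or more. On that measure 24 of 39 Hox genes (61.5%) and 55 of 72 other developmental regulators (76.4%) had the same order. The median over the 28 genes was 14.8 percentage points more cover at p20. It was 3.81 points over the 14401 genes and 0.471 points over those of 50 kb or more. These backgrounds were not matched for the level of cover, and genes with little cover can differ by few points only.

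Gab1, a signalling adaptor needed in the placenta, had 29.9%, 15.2% and 30.2% of its span (chr8:80764431-80880519) under peaks in the adult lists and 48.0%, 51.5% and 45.8% at p20. At its promoter no adult list had a peak, against 19.9%, 47.0% and 27.035% at p20. Tle3, a transcriptional corepressor, had 41.5%, 31.5% and 35.8% of its span (chr9:61372326-61418497) against 68.6%, 61.5% and 64.2%. Jade1, a subunit of a histone acetyltransferase complex, had 26.1%, 10.4% and 24.7% (chr3:41555734-41616864) against 33.3%, 39.8% and 36.5%. Runx1, a blood regulator, had 21.2%, 22.6% and 25.1% (chr16:92601466-92826074) against 43.9%, 39.7% and 41.7%. In these 4 genes the groups did not overlap, and adult list 2, the longest list, was the lowest of the 6 in Gab1, Tle3 and Jade1. Sfmbt2, a Polycomb group protein gene, was marked at its promoter in all lists (65.2%, 88.8% and 65.2% against 84.7%, 97.04% and 80.0%). Across its span it had 9.10%, 6.85% and 8.08% against 18.8%, 18.2% and 16.2%.

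Xist, the noncoding RNA of X inactivation, had 9.26%, 5.91% and 6.90% of its span (chrX:103460373-103483233) under peaks in the adult lists and 17.4%, 26.6% and 15.5% at p20. Matn1, a cartilage matrix gene, was the 1 member with the opposite order (8.60%, 66.3% and 4.23% against 0% in each p20 list). Slc38a4, an amino acid transporter, had no promoter cover except 32.6% in adult list 2, while 11.4%, 12.9% and 7.98% of its span was covered in the adult lists against 18.1%, 18.7% and 23.0% at p20. In the promoter test, 5 of 19 of these genes had all p20 lists above the adult lists (26.3%, against 19.8% of all). Without adult list 2, Inhbb alone passed (1 of 18, against 7.19% of all promoters tested). The gene list was drawn up with earlier results of these data known and is described by its counts only.

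Ribosomal protein genes and genes at maternally methylated imprint control regions were mostly free of promoter peaks, while 13 of 20 oocyte genes had cover in at least 1 list, and 8 of 20 in a list other than adult list 2. Over all promoters, 45.4% had no base under a peak in any list and 53.9% none outside adult list 2. Of 16 genes at maternally methylated imprint control regions with a promoter entry, 10 had no base under a peak in any list and 2, Gnas and Grb10, were marked in all 6. These windows lie at the gene starts, and the imprint control regions themselves were not scored. Of 61 cytosolic ribosomal protein genes, 44 had no cover in any list and none was marked in all. Of 20 oocyte genes, 7, among them Zp3 (a zona pellucida protein), Bmp15 (an oocyte growth factor), Nlrp5 and Nobox, had none. Lhx8 was marked in all 6 lists (67.0%, 100% and 77.2% against 95.1%, 85.4% and 85.8%). Adult list 2 marked 5 of the 20, the other adult lists 1 each and the p20 lists 1, 3 and 3. The marked share of all promoters was 14.1%, 21.8% and 12.6% in the adult lists and 20.9%, 21.1% and 21.01% at p20. Padi6, a protein of the oocyte cytoplasmic lattices, had 48.5% in adult list 2 and no cover in the other 5 lists.

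Genes of granulosa and other somatic ovary cells, the cells that surround the oocyte, were covered in part. Of 12 with a promoter entry, 2 were marked in all 6 lists and 2 had no cover in any. In the adult lists 5, 4 and 5 were marked, and 7 in each p20 list. Over gene spans 7 of 13 had all p20 lists above the adult lists (53.8%, against 25.5% of all genes covered in at least 3 lists). With the same number of peaks per list it was 5 of 13 (38.5%) against 21.6%, and against adult lists 1 and 3 alone 8 of 13 (61.5%) against 50.3%. Foxl2, a granulosa cell regulator, had 82.1%, 50.6% and 25.4% of its promoter under peaks against 73.8%, 66.7% and 56.3%, with overlapping groups. Fshr, the receptor for follicle-stimulating hormone, had 10.9%, 0% and 23.5% against 36.0%, 71.1% and 33.2%. Amhr2, the receptor for anti-Müllerian hormone, had 10.9%, 0% and 0% against 27.4%, 20.1% and 31.9%. In both receptor genes the groups were separate, and the limma adjusted p was 0.329 and 0.321. They were the only 2 of 8 promoters tested from this list with that order (25%, against 19.8% of all promoters tested).

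The RNA of control oocytes of the same ages, sequenced from single oocytes after removal of ribosomal RNA (8 libraries at each age), gave the expression of the enzymes that write and remove the mark. Gene counts ranged from 16043788 to 31364267 per library. The oocyte identity of these libraries was examined with marker lists: the 10 oocyte markers summed to 8404 to 13337 CPM (counts per 1000000 gene counts) in adult and 10481 to 14544 at p20. The 10 granulosa markers summed to 33.2 to 63.6 and 55.6 to 69.3 CPM, and 8 markers of other ovary cells to 68.8 to 98.96 and 49.6 to 78.9 CPM, with Amhr2, Acta2, Col1a1 and Ptprc under 1 CPM in every library. The part of other cells in the results was not tested. Of 14455 genes tested with edgeR, 4837 passed an adjusted p of 0.05 (33.5%), 2285 higher in adult and 2552 higher at p20. The 8 oocytes of an age carry only 2 title tags, with 4 oocytes each, and the tags differ between the ages, so age and tag cannot be told apart. If oocytes with 1 tag share a source, the p-values over 8 oocytes are too small. With counts summed per tag (2 sums per age), 2497 of 19460 genes passed in edgeR (12.8%). Scaled to the added ERCC RNAs, 13754 of 14455 passed (95.2%), 58 higher in adult and 13696 higher at p20, so the even split holds relative to total RNA alone. ERCC counts were 49352 to 83546 per library in adult and 12313 to 17832 at p20. Whether equal amounts of ERCC RNA were added at both ages was not tested. A change in RNA per oocyte and a change in the amount added cannot be told apart here.

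Among the 26 genes of PRC2, PRC1 and the H3K27 demethylases, 24 were tested, 6 were higher in adult and 5 higher at p20, where 33.5% of all genes passed. With counts summed per tag, where 12.8% of all genes passed, 3 and 2 of these did: Eed, Kdm6a and Pcgf1, higher in adult, and Pcgf5 and Cbx2, higher at p20 (edgeR adjusted p 0.0134 to 0.0386). Of the PRC2 core, Eed ranged from 152 to 199 CPM (median 174) in adult and from 112 to 144 (128) at p20, with no overlap and a log2 change of 0.48 ± 0.08 (SE, edgeR adjusted p 0.000133). Ezh2, the main methyltransferase, had medians of 442 and 461 CPM (-0.04 ± 0.05, adjusted p 0.553), Ezh1 85.5 and 88.6 CPM (-0.02 ± 0.06, adjusted p 0.820) and Suz12 842 and 730 CPM (0.15 ± 0.07, adjusted p 0.124) in edgeR. The groups of all 3 overlapped. The demethylase gene Kdm6a was higher in adult (medians 628 and 494 CPM, 0.37 ± 0.06, edgeR adjusted p 0.000116), and the groups were separate. Kdm6b was at 616 and 592 CPM (0.11 ± 0.06, edgeR adjusted p 0.193). Among PRC1 genes, Pcgf1 was higher in adult (0.44 ± 0.06, edgeR adjusted p 5.95e-05), and Pcgf5 (-0.94 ± 0.13, adjusted p 4.15e-05) and Cbx2, whose protein binds the mark (-0.39 ± 0.07, adjusted p 0.000411), were higher at p20. All signs above are relative to total RNA: scaled to ERCC RNAs instead, the median gene moved by -1.68 and every one of these genes had a negative log2 change, Eed -1.20 and Kdm6a -1.30 among them. At their own promoters, 15 of the 21 with an entry had no base under a peak in any list, against 45.4% of all promoters, and Cbx8 was marked in all 6.

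The promoter classes were then set beside the RNA. Symbols of 75.9% of the promoters matched the RNA table. Of the matched genes, 24.7% of those marked in all 6 lists and 27.1% of those marked at p20 alone had enough counts to be tested, against 64.6% of those with no base under a peak and 50.2% of all. These shares count genes that passed the filter on low counts and were not tested against each other, and the classes also differ in their share of protein-coding genes. Among genes tested, 27.6% of those marked in all 6 lists (118 of 428) changed between ages, 64 higher in adult and 54 at p20, against 34.1% of all matched genes tested. Among genes marked at p20 alone 15 of 42 (35.7%) changed, 8 higher in adult and 7 at p20. Leaving adult list 2 out of account, 31.4% of the matched genes marked at p20 could be tested and 44 of 149 (29.5%) changed. With counts summed per title tag, 14.3% of those marked in all 6 lists (61 genes) and 21.4% of those marked at p20 alone (9 genes) changed, against 16.2% of all matched genes tested. Of the 30 noncanonical imprinted genes, 15 were tested for RNA. Of these, 5 were higher in adult and 2 higher at p20, where 33.5% of all genes passed. With counts summed per tag it was 4 and 2, where 12.8% of all genes passed. Matn1 was higher at p20 (-1.49, edgeR adjusted p 0.00446). Gab1 was higher in adult (1.66, edgeR adjusted p 0.00117), as was Sfmbt2 (2.03, adjusted p 0.0160). Both passed with counts summed per tag (edgeR adjusted p 0.0329 and 0.0363), though scaled to ERCC RNAs Gab1 had a log2 change of -0.06 and Sfmbt2 0.35. Both genes were low in RNA at both ages, and the single oocytes of the 2 ages overlapped in each. The medians were 3.82 CPM in adult and 1.403 at p20 for Gab1, and 1.32 and 0.266 CPM for Sfmbt2. These changes therefore rest on few counts.

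The promoter classes were also set beside their sequence, without a test. For the 2187 promoters marked in all 6 lists and the 270 marked at p20 alone, the median ratio of observed to expected CG in the 300 bases was 0.537 (quartiles 0.277 and 0.760) against 0.304 (0.186 and 0.508), or 0.355 for the 710 marked at p20 and in neither adult list 1 nor 3, with 0.389 over all promoters and 0.516 for those with no base under a peak. The median GC content was 59.3% and 50.8%, against 52.7% over all. Of the 2187, 66.7% were protein-coding, of the 270, 45.6%, and of the 710, 55.6%, against 64.7% of all and 71.3% of those with no base under a peak. RNA polymerase II peaks lay in the window in all 3 control lists of an age at 0.229% (adult) and 1.33% (p20) of promoters marked in all 6 lists, against 1.08% and 4.77% of all promoters and 1.40% and 6.30% of those with no base under an H3K27me3 peak. At promoters marked at p20 alone these shares were 0% and 0.370%, and 0.141% and 2.54% with adult list 2 left out of account. The promoters marked by adult list 2 alone had a CG ratio of 0.293 and RNA polymerase II at 1.83% and 6.40%, and 49.1% of their matched genes had enough RNA to be tested.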

How the data were processed

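Control H3K27me3 CUT&Tag peak lists of adult GV and p20 oocytes (3 each) were used with the RNA counts of 8 control oocytes per age. The peak lists were deposited by the authors, 1 per library, with a chromosome, start, end, summed signal and highest signal per peak, in the authors' own unit of coverage signal. Per the labels' design text, libraries were brought to the same read number by random sampling, and duplicate reads were kept. SEACR and the build mm10 are named in the submitters' processing notes, with STAR 2.7.2a, SAMtools 1.9 and HTSeq 0.9.1; the threshold, any scaling of the signal and the aligner of the CUT&Tag reads are not given in the sources used here. The authors deposited the RNA data as raw counts of each gene; use of strand is not given, so overlapping genes are uncertain. Per the file layout, the deposited peak lists of 1 group are separate and not pooled.

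Lists were compared in bases with Python 3.11.15 and NumPy 2.4.6. Consensus regions are bases in at least 2 of 3 lists. RefSeq genes of GRCm38.p6, the primary assembly of mm10, gave starts and spans, with the promoter-table entry nearest to each gene's 5′ end. Coordinates are 1-based. Whole-list measures were compared with 2-sided exact permutation tests, and percent cover of promoters (2.5 kb on each side) and 10 kb bins with limma 3.58.1 (trend, Benjamini-Hochberg, threshold 0.05), for windows covered in at least 3 lists. RNA was tested with edgeR 4.0.16 (quasi-likelihood, TMM, filterByExpr) in R 4.3.3, with DESeq2 1.42.0 as an alternative; CPM use gene counts. The windows' test was checked on simulated cover of promoters (8365 tested): with 12.6 points, the median spread within groups in the data, 26% of changes of 30 points and 99% of changes of 60 points were recovered. The 10 promoters named with more cover at p20 had an SE of the difference of 12.4 to 15.3 points, which is another scale than the spread within groups. Recovery at such SEs was not simulated. The simulation gave both ages the same spread in a window, and recovery with unequal spreads was not simulated. The reads behind each peak are not in the lists, so depth per region is unknown.

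Members and gene lists were chosen with earlier results of these data known. Named promoters are, apart from list members, the 10 with the largest separate difference in each direction (predicted and clone-named genes left out), and named regions the 5 widest of each class. The marking limit of 20% was set after the values were seen. Alternatives changed the peak threshold, the number of peaks, window sizes, filters, the lists in the fit, the RNA scaling and left out each list in turn. Leaving out adult list 2 together with equal numbers of peaks or with cover in at least 2 lists, and equal numbers of peaks for gene spans, were chosen after seeing the data.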

Additional observations from a re-analysis of the deposited data

How the results depend on the processing

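Of the 277 alternatives for the 20 named promoters, 249 kept direction and side of the threshold, 27 passed the threshold newly (10 without adult list 2 and the same 10 promoters with cover in at least 2 lists, all higher at p20) and 1 turned: Ang6 with 5 kb on each side, 1.23 percentage points more cover at p20. Leaving out adult list 2 turned the median width (log2 difference 0.020; -0.069 to 0.020 with each list left out in turn) and the share of bases in peaks of 10 kb or more (-0.749 points; -0.749 to 0.756); joining peaks under 1 kb apart also turned the latter (-7.15 points). The cause was not tested.

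Shared consensus was 9.60 Mb with bases in all 3 lists, 117 Mb with at least 1, 25.7 Mb with peaks above their list's median signal, 29.9 Mb with equal numbers of peaks and 16.5 Mb when adult list 2 was also left out; leaving out 1 list at a time gave 17.8 to 26.8 Mb. The adult-only length (15.9 Mb) was 4.22 Mb with all 3 lists, 112 Mb with at least 1, 8.92 Mb above median signal, 14.1 Mb with equal numbers, 5.24 Mb when adult list 2 was also left out, 4.57 to 7.30 Mb with 1 adult list left out and 24.4 to 25.2 Mb with 1 p20 list left out. The p20-only length was 31.0, 134, 47.9, 47.8 and 61.1 Mb in the order above, and 34.2 to 83.7 Mb with 1 list left out. The shared share of adult was 51.2% with at least 1 list, 57.1% as regions with 50% of their length covered, and 50.8% to 79.6% with 1 list left out. The shared share of p20 was 23.6% (all 3 lists), 46.7% (at least 1), 38.5% (equal numbers), 21.3% (also without adult list 2), 33.9% (regions with 1 base) and 19.2% (regions with 50%), and 17.6% to 43.7% with 1 list left out.

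Promoters passing were 0 to 551 with 1 list left out, 162 without adult list 2 and with equal numbers and 586 without it and with cover in at least 2 lists; 1730 had separate groups. Bins passing were 0 to 4433, 1493 and 4054 likewise, and 194 with all 12 H3K27me3 lists in the fit. Separate groups, which are not a test, were found in 15252 of 64470 bins. RNA calls were 13754 scaled to ERCC (58 higher in adult), 2497 with counts summed per title tag, 5201 in DESeq2 and 5223 without the filter.

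Title numbers did not pair the lists: deviations of same-numbered lists correlated at 0.064, 0.210 and 0.071 over promoters. With the replicate block, 0 promoters and 0 bins passed, and the paired exact permutation p was 0.25 to 1 over the 6 measures, where 3 pairs allow none below 0.25. With 3 lists per age, and reads behind peaks unknown, differences of single promoters within the spread of the adult lists were not detectable.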

Other observations

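Most of the 3 strongest peaks of each list lay at loci that recurred across lists. A peak of 2.13 to 2.85 kb in Gm40237 on chromosome 4 was among the 3 strongest in all 6 lists, with a total signal of 1136943, 846972 and 988320 in the adult lists and 1260839, 1387725 and 1302583 at p20. A peak over AY036118, a locus with ribosomal RNA-like sequence on chromosome 17, had 3582105 in adult list 2, which is 0.646% of that list's signal. In the other lists where it ranked among the 3 strongest (adult 3 and the 3 p20 lists), it had 677427 to 950377. The array of 5S ribosomal RNA genes, a peak of 87.2 to 87.8 kb, had 885951 and 814073 in adult lists 1 and 3 and 1545947, 1691896 and 1061846 at p20. It was not among the 3 strongest peaks of adult list 2, where a 49.98 kb peak over Hoxb13 ranked second. The third peak of adult list 1 was 48.7 kb wide and overlapped no annotated gene.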
